A study of Mus musculus with 12 samples.

Results

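Spliced reads of 7 genes of the p53 pathway were described in mouse neocortex and in neocortical cultures: Trp53, its inhibitors Mdm2 and Mdm4, and the target genes Cdkn1a, Ccng1, Bbc3 and Bax. The rule takes them by symbol and uses no measured value, although the genes were picked with earlier results of these data known. They are 7 of 18312 genes with annotated junctions listed in the first experiment, of which 18202 had reads in the libraries used, and 7 of 17367 in the second, and all 7 passed the filter on low counts in both. All samples were poly-A RNA from wild-type NMRI mice, in 12 stranded libraries, 2 for each of 6 groups. The first experiment held cultures given DRB (50 uM for 2 hours), untreated control cultures, neocortex tissue of postnatal day 49 (P49) and neocortex tissue of postnatal day 10 (P10). The second held cultures given bicuculline (20 uM for 1 hour) together with DRB, and cultures given DRB alone, each with DRB at 50 uM for 2 hours. Cultures were dissociated cells of E16.5 neocortex, grown for 14 days. DRB blocks elongation by RNA polymerase II, so that RNAs are lost by decay without being replaced, and bicuculline blocks GABA-A receptors and raises network activity. No source used here says that paired libraries are separate animals or separate cultures, so p-values measure only the spread between these libraries, which may be technical. The names of the 2 P10 columns share 1 tissue code, and those of the P49 columns hold different codes. Some column names of the first DRB group mention TTX, a blocker of action potentials, and whether it was given is not stated in the sources used here.

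The transcription factor p53, the product of Trp53, is held low by Mdm2, a ubiquitin ligase that marks it for degradation, and by Mdm4, a related protein that binds p53 and blocks its activity. Mdm2 is itself a target of p53, which closes a feedback loop. Among the other targets, Cdkn1a encodes the cell cycle inhibitor p21, Ccng1 encodes cyclin G1, Bbc3 encodes the cell death activator PUMA, and Bax encodes the pore-forming death effector of mitochondria. In the developing brain, loss of Mdm2 or Mdm4 leads to p53-dependent death of neural cells, and skipping of a short Mdm4 exon is known to lower the full-length protein.

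That Mdm4 exon is shown first because its splicing is followed below. In the GENCODE annotation (release 21, GRCm38) it lies on the minus strand at chr1:133004654-133004721, is exon 6 of the transcript Mdm4-201, lies inside the coding sequence and is 68 nt long, which leaves a remainder of 2 when divided by the codon length. A shorter form of 39 nt, annotated in Mdm4-203, starts at an acceptor inside the exon and covers chr1:133004654-133004692. Of 14 annotated Mdm4 transcripts, 5 hold the 68-nt exon and 1, Mdm4-214, joins its neighbours directly. In the sequences below, from the annotated transcripts and written 5′ to 3′, capitals mark the exon and the 15 lower-case bases on either side belong to the neighbouring exons of the spliced RNA.
Mdm4 68-nt exon: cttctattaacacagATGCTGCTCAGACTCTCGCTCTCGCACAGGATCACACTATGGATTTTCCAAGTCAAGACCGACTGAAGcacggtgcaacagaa
Mdm4 39-nt form: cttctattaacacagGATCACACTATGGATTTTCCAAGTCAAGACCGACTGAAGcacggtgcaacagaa

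Binding of p53 to DNA uses a repeated decamer, and the promoters of the members were searched for it because these genes are known as p53 targets or regulators. The promoters came from RefSeq (GRCm38.p6) and ran from 250 bases before to 50 bases after a start, 11 windows for the 7 genes. At least 1 match to the consensus p53 decamer of 10 bases, searched on both strands, was found for 5 of the 7 genes, and no match for Mdm4 or Bbc3 in these windows. Counted by window, 5 of the 11 member windows held a match, against 8.36% of all 32851 promoter windows. A pair of decamers at most 13 bases apart was found in 0.0731% of all promoters and, among the members, in the Cdkn1a promoter, where they are 12 bases apart. A match is a description of the letters and does not show binding. Capitals mark the matched decamers, and each stretch is written 5′ to 3′ on the strand of its gene.
Cdkn1a, chr17:29090896-29090947, plus strand: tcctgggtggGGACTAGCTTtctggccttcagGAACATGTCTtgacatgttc
Trp53, chr11:69580274-69580303, plus strand: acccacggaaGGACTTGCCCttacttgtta
Mdm2, chr10:117710925-117710954, minus strand: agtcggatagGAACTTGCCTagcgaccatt
Ccng1, chr11:40755452-40755481, minus strand: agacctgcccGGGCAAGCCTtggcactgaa
Bax, chr7:45467080-45467109, minus strand: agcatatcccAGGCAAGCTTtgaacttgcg

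Gene levels are sums of reads over annotated exon-exon junctions, given as CPM, the counts scaled by library size after TMM normalization. A level is thus relative to the other RNAs of its library, and a loss shared by all RNAs cannot be seen. Under DRB, higher, lower or not called describes a gene against the other RNAs, not its amount per cell. Depth was 49559425 to 73900724 spliced reads per library (first experiment) and 62423801 to 69852903 (second), and the experiments were scaled separately, so levels are not compared between them. Markers of cell types differed between groups. Summed levels of 5 genes of dividing cells were 87.9 to 93.7 CPM under DRB, 272 to 308 CPM in control cultures, 6.47 to 7.62 CPM in P49 cortex and 51.7 to 53.6 CPM in P10 cortex. Summed levels of 6 neuron markers were 3175 to 3254, 1672 to 1755, 6916 to 6931 and 4503 to 4530 CPM in the same order, those of 5 astrocyte markers were 1334 to 1423, 1524 to 1534, 551 to 561 and 634 to 671 CPM, and those of 5 oligodendrocyte markers were 90.7 to 107, 48.6 to 60.0, 2386 to 2442 and 762 to 887 CPM. Of the astrocyte markers, 1 was at 0 in P49 cortex. In bulk RNA, fewer cells of a type and less RNA per cell cannot be told apart, and the part of these shifts in the results below was not tested.

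All 7 members were higher in control cultures than in P10 cortex and than in P49 cortex, and the set split in the other comparisons. Against P10 cortex, 7 of 7 were higher in control cultures, where 74.4% of 15256 genes were called and 37.2% were called higher (edgeR, adjusted p under 0.05). Against P49 cortex it was also 7 of 7, with 76.6% of genes called and 39.5% called higher. Between ages, 2 of 7 were higher in P49 cortex than in P10 cortex (Mdm2 and Ccng1) and 4 were lower (Trp53, Cdkn1a, Bbc3 and Bax), where 57.3% of genes were called, 4313 higher and 4426 lower. Under DRB, 1 of 7 was higher than in control cultures (Cdkn1a) and 3 were lower (Trp53, Mdm2 and Ccng1), where 63.3% of genes were called, 4579 higher and 5082 lower. With bicuculline added to DRB, 0 of 7 were called by edgeR or DESeq2, 0 of 7 had an unadjusted p under 0.05, and 0.212% of 14138 genes were called. At the shares of the first experiment a call alone sets no member apart from other genes.

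**Figure D1:**
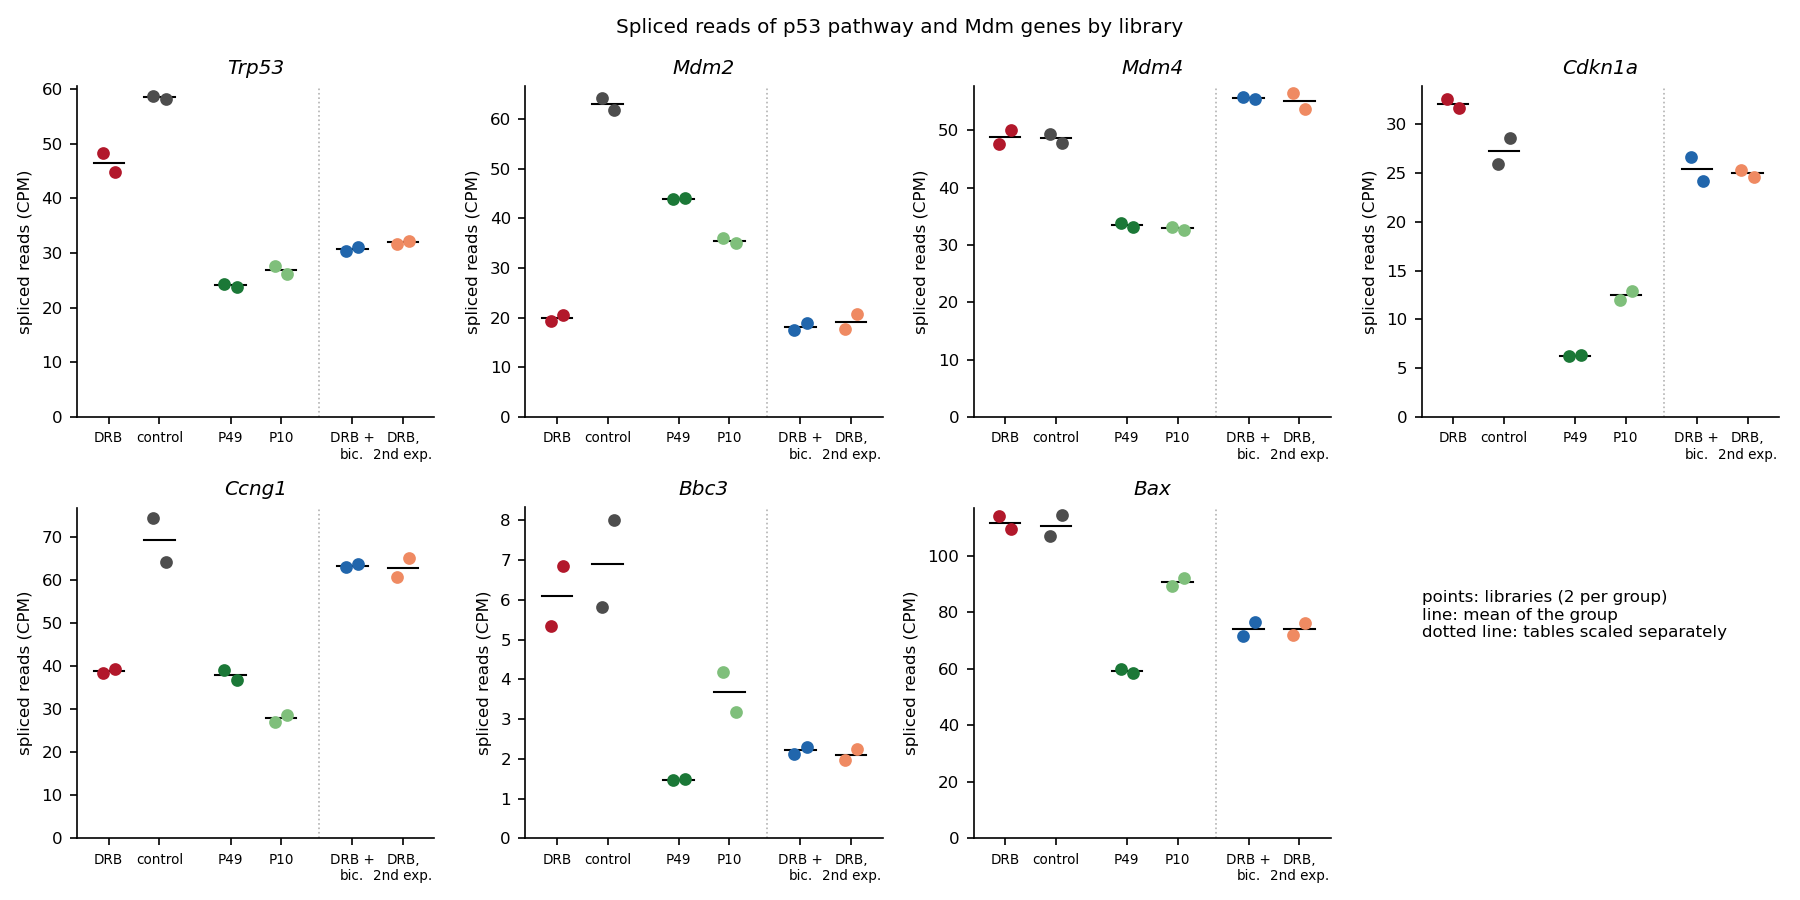
Spliced reads in CPM (y axis, linear from 0) of each of the 7 genes in every library, by group along the x axis (points: 2 libraries per group, line: group mean, dotted line: experiments scaled separately). Control cultures lie above P49 and P10 cortex for all 7 genes, and Mdm2 at 19.3 and 20.5 CPM under DRB lies below every other library of its experiment.

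Trp53 (ENSMUSG00000059552.13, GRCm38 chr11:69580359-69591873, plus strand) had a higher level in each culture library of the first experiment than in each tissue library. It had 48.2 and 44.8 CPM under DRB, 58.8 and 58.1 CPM in control cultures, 24.3 and 23.9 CPM in P49 cortex and 27.6 and 26.2 CPM in P10 cortex. None of these pairs overlapped, and the order was control, DRB, P10, P49. Control cultures averaged 58.5 ± 0.486 CPM, against 26.9 ± 0.977 CPM in P10 cortex (SD, n = 2 each), a log2 change of 1.12 ± 0.0620 (SE, adjusted p = 1.26e-08), and the log2 change against P49 cortex was 1.28 ± 0.0627 (adjusted p = 3.34e-09). Under DRB Trp53 fell by 0.33 on the log2 scale (SE 0.0610, adjusted p = 0.000537). The lower level in P49 than in P10 cortex was small, at a log2 change of -0.16 ± 0.0629 (adjusted p = 0.0480), and the call was lost under 8 of 9 alternatives, with adjusted p up to 0.202. Wrap53 overlaps Trp53 on the other strand. In the first experiment 4523 coordinates were listed on both strands, and whether reads of Wrap53 enter the Trp53 counts was not tested.

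Mdm2 (ENSMUSG00000020184.15, chr10:117688875-117710758, minus strand), the ligase that marks p53 for degradation, had the largest change of the 7 members under DRB. It had 19.3 and 20.5 CPM under DRB, against 64.3 and 61.9 CPM in control cultures. The means were 19.9 ± 0.838 CPM under DRB and 63.1 ± 1.71 CPM in control cultures (SD, n = 2 each), so that Mdm2 fell by 1.67 on the log2 scale (SE 0.0605, adjusted p = 1.44e-08), or 3.17-fold. In tissue it had 43.8 and 44.1 CPM in P49 cortex, against 35.9 and 34.9 CPM in P10 cortex. It was thus higher at the later age, with a log2 change of 0.31 ± 0.0581 (adjusted p = 0.000764). Control cultures were higher than both ages, by 0.83 ± 0.0580 against P10 cortex and 0.52 ± 0.0577 against P49 cortex on the log2 scale (adjusted p = 9.56e-08 and 5.22e-06).

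Mdm4 (ENSMUSG00000054387.13, chr1:132959484-133030561, minus strand), the other inhibitor of p53, was not called under DRB or between ages. It had 47.6 and 50.1 CPM under DRB, against 49.4 and 47.8 CPM in control cultures, and these pairs overlapped. The log2 change under DRB was 0.01 ± 0.0568 (adjusted p = 0.909). It had 33.8 and 33.2 CPM in P49 cortex, against 33.2 and 32.6 CPM in P10 cortex, with a log2 change of 0.03 ± 0.0575 (adjusted p = 0.724). Control cultures were higher than P10 cortex by 0.56 ± 0.0572 and than P49 cortex by 0.54 ± 0.0573 on the log2 scale (adjusted p = 2.84e-06 and 3.91e-06). Under DRB the median log2 change of all genes was -0.03 with TMM and -0.22 when libraries were scaled to their totals. On totals Mdm4 was lower under DRB, at a log2 change of -0.18 (adjusted p = 0.0152), which lies close to that median. A processed pseudogene of Mdm4 exists, so the assignment of some reads is uncertain.

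**Figure D2:**
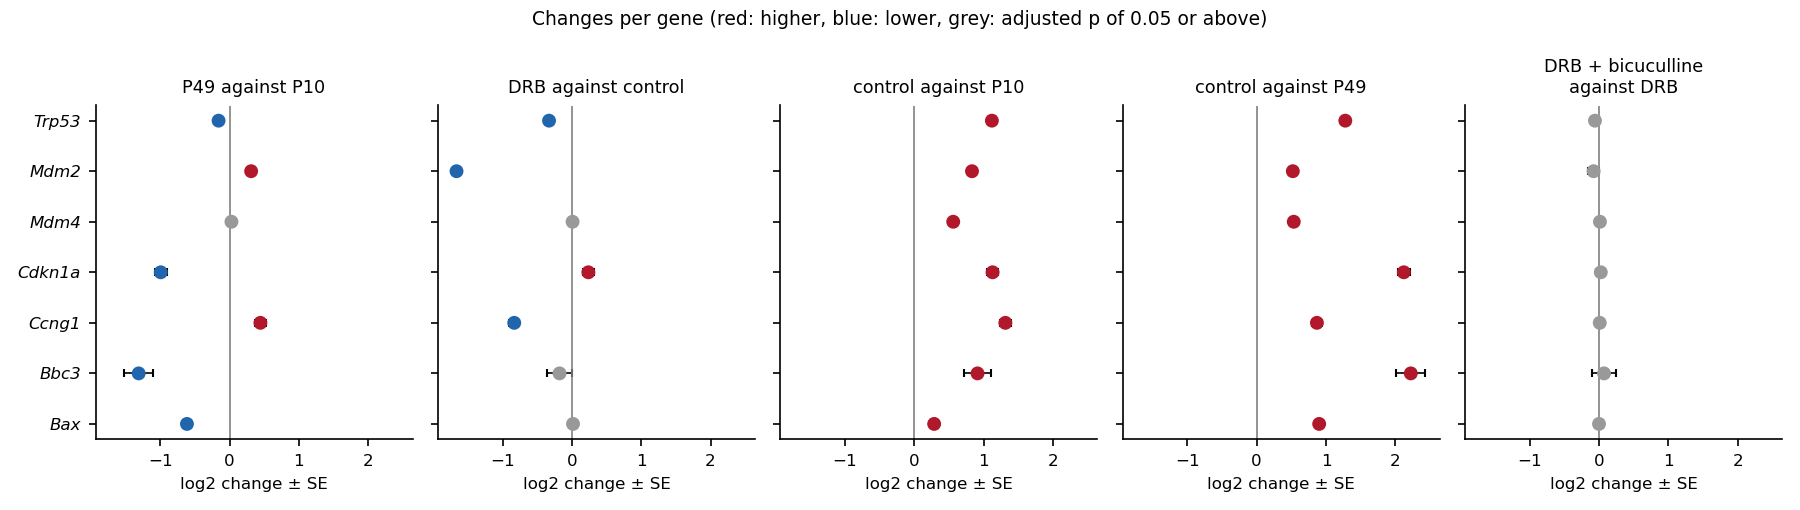
Log2 change of each gene (x axis, points, with SE as bars where they exceed the point) in the 5 comparisons, each named with the group on top of the change first (red: called higher, blue: called lower, grey: adjusted p of 0.05 or above). All 7 genes lie to the right of 0 for control cultures against P10 and P49 cortex, and under DRB Mdm2 at -1.67 lies farthest to the left.

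The 2 targets linked to the cell cycle, Cdkn1a and Ccng1, moved in opposite directions with age. Under DRB Ccng1 fell, while a small rise of Cdkn1a rested on 1 of its 2 junctions. Cdkn1a (ENSMUSG00000023067.14, chr17:29090976-29100727, plus strand) had 32.6 and 31.7 CPM under DRB, against 25.97 and 28.6 CPM in control cultures. In tissue it had 6.19 and 6.33 CPM in P49 cortex, against 12.0 and 12.9 CPM in P10 cortex. Cdkn1a was lower at the later age by 0.99 on the log2 scale, since P49 cortex averaged 6.26 ± 0.101 CPM and P10 cortex 12.5 ± 0.635 CPM (SD, n = 2 each; adjusted p = 1.75e-06). Its rise under DRB was small, at a log2 change of 0.24 ± 0.0778 (adjusted p = 0.0194). The first junction had 22.6 and 21.8 CPM under DRB, against 15.6 and 18.4 CPM in control cultures. The second was slightly lower under DRB, at 10.04 and 9.88 CPM, against 10.42 and 10.15 CPM. The call under DRB was lost without the first control library (adjusted p = 0.157), without either DRB library (0.106 and 0.0587) and with libraries scaled to their totals (log2 change 0.05, adjusted p = 0.624). Control cultures were higher than P10 cortex by 1.13 ± 0.0803 and than P49 cortex by 2.12 ± 0.0854 on the log2 scale (adjusted p = 1.13e-07 and 5.84e-10).

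Ccng1 (ENSMUSG00000020326.7, chr11:40748552-40755311, minus strand) had 38.5 and 39.3 CPM under DRB, against 74.6 and 64.2 CPM in control cultures. It fell by 0.83 on the log2 scale under DRB (SE 0.0752, adjusted p = 2.00e-06), or 1.78-fold. In tissue it had 39.1 and 36.8 CPM in P49 cortex, against 27.0 and 28.8 CPM in P10 cortex. The later age was higher by 0.44 ± 0.0761 on the log2 scale (adjusted p = 0.000405), and the DRB and P49 libraries overlapped in level. Control cultures were higher than P10 cortex by 1.31 ± 0.0761 and than P49 cortex by 0.87 ± 0.0751 (log2, adjusted p = 1.86e-08 and 5.63e-07).

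The 2 targets that act in cell death, Bbc3 and Bax, were lowest in P49 cortex within the first experiment and were not called under DRB. Neither trait is theirs alone: Trp53 and Cdkn1a were also lowest in P49 cortex, and Mdm4 was also not called under DRB. Bbc3 (ENSMUSG00000002083.13, chr7:16308393-16318205, plus strand) was the member with the fewest reads, 89 to 476 per library in the first experiment. It had 5.34 and 6.86 CPM under DRB, against 5.81 and 7.999 CPM in control cultures, and these pairs overlapped (log2 change -0.18 ± 0.185, adjusted p = 0.416). It had 1.46 and 1.495 CPM in P49 cortex, against 4.18 and 3.18 CPM in P10 cortex. The later age was lower by 1.31 on the log2 scale (SE 0.212, adjusted p = 0.000257). Control cultures were higher than P10 cortex by 0.91 ± 0.188 and than P49 cortex by 2.22 ± 0.208 (log2, adjusted p = 0.000936 and 1.17e-06).

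Bax (ENSMUSG00000003873.11, chr7:45461697-45466898, minus strand) had the highest level per junction of the members in control cultures. It had 114.2 and 109.4 CPM under DRB, against 107.0 and 114.3 CPM in control cultures, and these pairs overlapped (log2 change 0.01 ± 0.0497, adjusted p = 0.810). On library totals Bax was lower under DRB, at a log2 change of -0.18 (adjusted p = 0.00916), where the median of all genes was -0.22. It had 59.9 and 58.5 CPM in P49 cortex, against 89.3 and 92.2 CPM in P10 cortex. The later age was lower by 0.62 on the log2 scale (SE 0.0504, adjusted p = 1.13e-06). Control cultures were higher than P10 cortex by 0.29 ± 0.0497 and than P49 cortex by 0.90 ± 0.0506 (log2, adjusted p = 0.000259 and 1.11e-08).

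Between genes, levels were compared as the median CPM per annotated junction. In control cultures it was 24.7 ± 0.538 for Bax, 13.6 ± 0.924 for Cdkn1a, 12.0 ± 1.15 for Ccng1, 7.54 ± 0.0467 for Trp53, 6.22 ± 0.855 for Mdm2, 4.14 ± 0.704 for Mdm4 and 1.83 ± 0.565 for Bbc3 (SD, n = 2). In P49 cortex Bax was again first, at 12.96 ± 0.0634, and Bbc3 last, at 0.307 ± 0.0301, while Cdkn1a at 3.13 ± 0.0503 lay below Mdm2 at 3.98 ± 0.158. Under DRB Mdm2 stood at 1.87 ± 0.0246 per junction, near Bbc3 at 1.65 ± 0.0466.

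With bicuculline added, none of the 7 members was called. Mdm2 had 17.5 and 18.9 CPM with bicuculline and DRB, against 17.7 and 20.7 CPM with DRB alone. Ccng1 had 63.1 and 63.7 CPM with bicuculline and DRB, against 60.7 and 65.2 CPM with DRB alone. Cdkn1a had 26.6 and 24.2 CPM, against 25.3 and 24.7 CPM with DRB alone. These pairs overlap, as do those of Mdm4, Bbc3 and Bax. Trp53 had 30.3 and 31.0 CPM with bicuculline and DRB, against 31.6 and 32.3 CPM with DRB alone. Its pairs do not overlap, but how many of all genes separate in this way was not counted, so no result is read from it. The log2 changes of the 7 genes ranged between -0.08 ± 0.0782 for Mdm2 and 0.07 ± 0.172 for Bbc3, and the adjusted p was 0.9998 for each. A missed threshold with 2 libraries a group does not show that the levels were equal.

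The deposited tables list junctions between neighbouring exons of the authors' gene model, so reads that join the neighbours of the 68-nt Mdm4 exon directly were not analysed here, and no percentage of skipping is given. Inclusion was read from an index instead: the mean of the reads over the introns on either side of the exon, divided by the mean of the reads over the next introns outward. The reads before the exon include reads into its shorter form, and both forms share the reads after it. The index thus measures inclusion of either form, not of the 68-nt form alone. The index is also relative, because reads per intron vary along Mdm4 in every group. It was lower in control cultures than in P10 cortex. It was 0.432 and 0.471 under DRB, 0.326 and 0.461 in control cultures, 0.558 and 0.534 in P49 cortex, and 0.675 and 0.576 in P10 cortex. In this experiment every tissue library lay above every culture library. In the second experiment the cultures had 0.512 and 0.477 with bicuculline and DRB, against 0.517 and 0.528 with DRB alone, closer to the tissue values, though the experiments are not compared by a test.

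**Figure D3:**
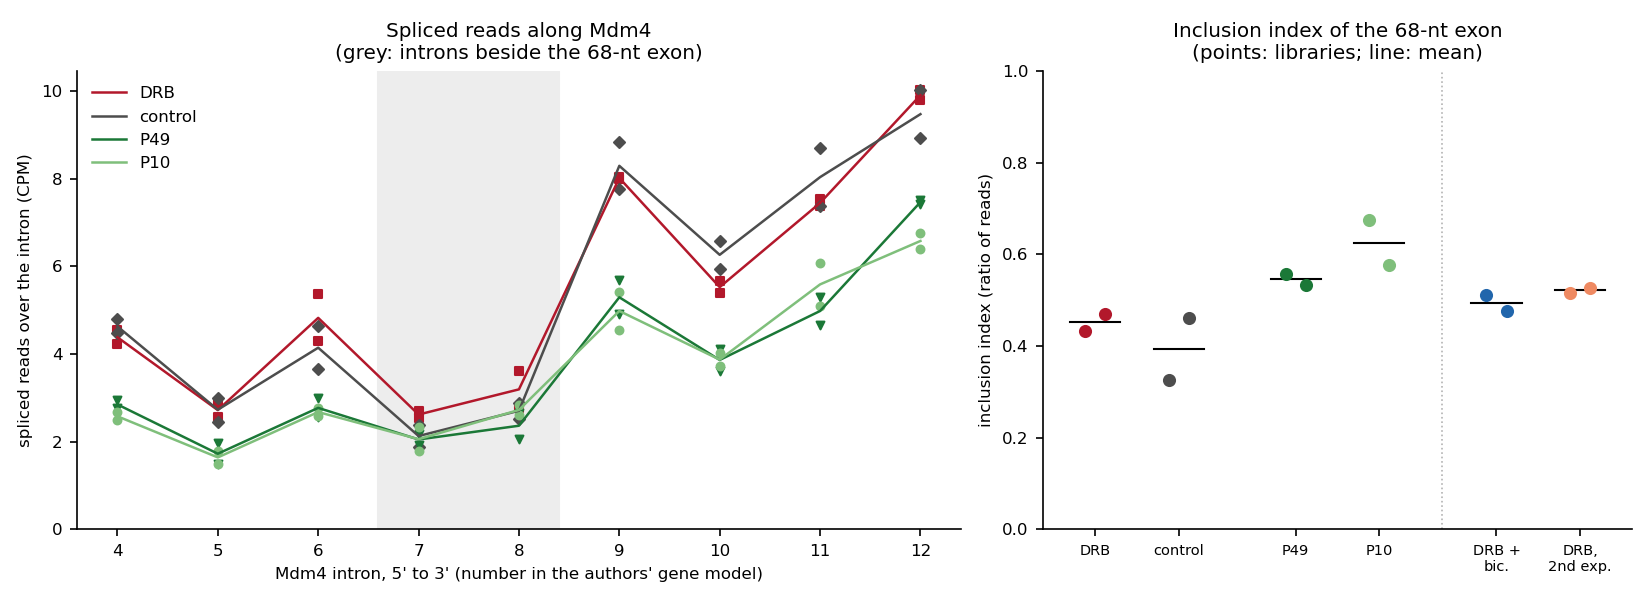
Left, spliced reads in CPM (y axis) over each Mdm4 intron by its number in the authors' gene model (x axis), with points for libraries, lines for group means and grey for the introns beside the 68-nt exon. Right, the inclusion index of that exon, in either form, in each library (points, line: group mean, dotted line: experiments scaled separately). The 4 tissue libraries lie between 0.534 and 0.675, and the 4 culture libraries of that experiment between 0.326 and 0.471.

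The index averaged 0.394 ± 0.0951 in control cultures and 0.626 ± 0.0698 in P10 cortex (SD, n = 2 each). The log2 change was -0.67 ± 0.135 (edgeR with libraries as blocks, adjusted p = 0.00344 over 106607 exons). This was 1 of 26 member exons called in that comparison, where 1.07% of exons were called. The call rests on single libraries: without the first control library the log2 change was -0.44 (adjusted p = 0.6003), and without the first P10 library -0.56 (adjusted p = 0.155). Fitted on the 2 groups alone it was -0.67 (adjusted p = 0.0700), and with the upstream junction alone -0.63 (adjusted p = 0.0671). Against P49 cortex, at 0.546 ± 0.0169, the log2 change in control cultures was -0.49 ± 0.140 (adjusted p = 0.0859), and it passed the threshold without the second control library (-0.75, adjusted p = 0.0140). In the other comparisons 0 of 26 member exons passed in edgeR, against 1.54% of exons for control against P49, 0.584% for DRB against control, 0.546% for P49 against P10 and 0.00103% of 97232 for bicuculline. An unadjusted p under 0.05 was reached by 2, 1, 1 and 0 of the 26 in those comparisons.

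Each junction was also tested against its gene. Beside the exon this test uses the same reads as the index, so it is not independent of it. In control cultures against P10 cortex the intron after the exon was called and the intron before it was not. The junction chr1:133003891-133004653 was the only 1 of 50 annotated member junctions called in control cultures against P10 cortex, with a log2 change in usage of -0.57 ± 0.158 (diffSpliceDGE of edgeR, adjusted p = 0.0139), where 5.53% of 152703 junctions were called. It had 135 and 172 reads in control cultures, against 180 and 211 reads in P10 cortex, while Mdm4 as a whole had more reads in control cultures. The call was lost without the first control library (adjusted p = 0.330) and without the second P10 library (adjusted p = 0.179). The junction before the exon, chr1:133004722-133009136, had a log2 change of -0.50 ± 0.181 (adjusted p = 0.107). In the other comparisons 0 of 50 (0 of 49 for bicuculline) were called, where 5.47% of junctions were called for control against P49, 1.64% for DRB against control, 1.67% for P49 against P10 and 0.00216% for bicuculline. An unadjusted p under 0.05 was reached by 7, 2, 1 and 2 member junctions.

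Other splice choices in Mdm4 were followed from their reads. Reads into the 39-nt form were 7.04% and 16.05% of reads into the exon under DRB, 8.91% and 7.09% in control cultures, 6.16% and 3.51% in P49 cortex, and 8.07% and 8.33% in P10 cortex. They rest on 4 to 26 reads per library, and no comparison of this junction was called (lowest adjusted p = 0.691). In the second experiment they were 15.9% and 17.9% with bicuculline and DRB, against 16.1% and 12.5% with DRB alone. Before an earlier exon, Mdm4 has a pair of neighbouring acceptors. The one that gives the longer exon, used by the junction chr1:133012715-133018776, took 54.9% and 55.7% of the pair under DRB, 53.7% and 57.9% in control cultures, 48.2% and 50.6% in P49 cortex, and 54.3% and 56.2% in P10 cortex.

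In Trp53 the last intron has an acceptor upstream of the usual one, which gives an alternative end of the protein. It took 18.3% and 19.3% of the pair under DRB, 17.2% and 16.3% in control cultures, 14.5% and 8.13% in P49 cortex, and 15.4% and 11.0% in P10 cortex. None of these differences was called. In Cdkn1a the ratio of reads over the first to the second annotated junction was 2.25 and 2.21 under DRB, against 1.49 and 1.82 in control cultures, without a call (adjusted p = 0.381 for the second junction).

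Junctions outside the annotation were tested together with the annotated ones. Under DRB, 2 of 6 such member junctions were called against control cultures, where 2.31% of 164834 junctions were called, and both lie in Mdm4, at chr1:132989040-132991699 (log2 change in usage 3.91 ± 0.613, adjusted p = 2.98e-06) and chr1:132985841-132988931 (3.37 ± 0.827, adjusted p = 0.00748). In control cultures against P10 cortex 2 of 6 were called, where 5.90% of junctions were called, and both lie in Trp53. The junction chr11:69580516-69581053 had 105 and 109 reads in control cultures, against 31 and 31 reads in P10 cortex (log2 change in usage 0.98 ± 0.238, adjusted p = 0.00462). The junction chr11:69581156-69586890 had 15 and 9 reads in control cultures, against 2 and 0 reads in P10 cortex (adjusted p = 0.0357). In the other comparisons 0 of 6 were called by edgeR, where 1.97% of junctions were called for P49 against P10, 6.20% for control against P49 and 0.00270% for bicuculline, and 1, 0 and 1 of the 6 had an unadjusted p under 0.05.

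Exons listed with reads over a skipping junction formed 14912 events in the first experiment, of which 14769 were tested. Of the tested events, 3 lie in Mdm4 and none is the 68-nt exon. Each rests on an inner junction with 2, 14 or 15 reads over all 8 libraries. None of the 3 was called by edgeR, against 8.72% of events for P49 against P10, 13.7% for DRB against control, 14.6% for control against P10 and 20.3% for control against P49, and 2 had an unadjusted p under 0.05 for P49 against P10. In the second experiment 0 of 3 member events, 1 each in Mdm2, Mdm4 and Trp53, were called, against 0.0485% of 8241 events, and 0 had an unadjusted p under 0.05.

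Genes of the wider pathway were described by list. Of 28 tested further p53 targets, 18 were lower and 3 higher under DRB than in control cultures, with a median log2 change of -0.53, against -0.03 for all genes. Of all 15256 genes tested, 63.3% were called under DRB, 5082 lower and 4579 higher. Plk2, a polo-like kinase induced by neuronal activity, had 55.0 ± 4.35 CPM under DRB and 128 ± 0.732 CPM in control cultures (log2 change -1.22, adjusted p = 2.92e-08). Sesn1, a stress-response sestrin, had 42.0 ± 2.37 CPM under DRB and 84.1 ± 0.407 CPM in control cultures (log2 change -1.003, adjusted p = 6.58e-08). Gtse1, a microtubule-associated protein of dividing cells, had 2.46 ± 0.107 CPM under DRB and 9.83 ± 0.309 CPM in control cultures (log2 change -2.00, adjusted p = 1.65e-07). The sum of the dividing cell markers was also lower under DRB, as given above, and the summed endothelial and mural cell markers, 4 genes, were 169 to 171 CPM under DRB, against 619 to 756 CPM in control cultures. Of these 4 genes, 3 were lower and 1 was higher under DRB. The part of both marker sets in these results was not tested.

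In P49 cortex 13 of the 28 targets were higher and 8 lower than in P10 cortex, with a median log2 change of 0.45, against -0.00 for all genes. Of all genes tested, 57.3% were called, 4313 higher and 4426 lower. Ephx1, an epoxide hydrolase, had 27.2 ± 2.04 CPM in P49 cortex and 11.2 ± 0.163 CPM in P10 cortex (log2 change 1.29, adjusted p = 2.37e-08). Btg2, an antiproliferative gene, had 8.88 ± 0.298 CPM in P49 cortex and 1.27 ± 0.325 CPM in P10 cortex (log2 change 2.79, adjusted p = 2.54e-07). Sulf2, a sulfatase of heparan sulfate, was lower, at 216 ± 17.5 CPM in P49 cortex and 393 ± 11.7 CPM in P10 cortex (log2 change -0.86, adjusted p = 1.87e-07).

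In control cultures 21 of the 28 targets were higher and 5 lower than in P10 cortex (median log2 change 0.77), and 14 were higher and 5 lower than in P49 cortex (median 0.34), against medians of 0.01 and 0.04 for all genes. Of all genes tested, 74.4% were called against P10 cortex, with 37.2% higher, and 76.6% against P49 cortex, with 39.5% higher. Fas, a death receptor, had 43.4 ± 3.84 CPM in control cultures and 0.232 ± 0.0816 CPM in P10 cortex (log2 change 7.55, adjusted p = 2.65e-11). Ephx1 had 274.4 ± 13.03 CPM in control cultures and 11.2 ± 0.163 CPM in P10 cortex (log2 change 4.62, adjusted p = 7.69e-13). Plk2 was lower in control cultures, at 128 ± 0.732 CPM, than in P10 cortex, at 298.9 ± 6.57 CPM (log2 change -1.22, adjusted p = 1.42e-09). Summed endothelial and mural cell markers, 4 genes, were 619 to 756 CPM in control cultures. They were 106 to 115 CPM in P49 cortex and 198 to 199 CPM in P10 cortex. The sum hides a split between these genes. Against P10 cortex 1 was higher and 2 were lower in control cultures (median log2 change -0.17). Against P49 cortex 2 were higher and 1 was lower. The part of these markers in the results was not tested.

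With bicuculline and DRB, 2 of the 28 targets were higher than with DRB alone and 0 lower, where 0.212% of all genes were called. Plk2 had 151 ± 5.85 CPM with bicuculline and DRB and 66.0 ± 5.94 CPM with DRB alone (log2 change 1.19, adjusted p = 3.37e-13). Btg2 had 3.41 ± 0.136 CPM with bicuculline and DRB and 1.71 ± 0.169 CPM with DRB alone (log2 change 0.996, adjusted p = 0.00227).

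**Figure D4:**
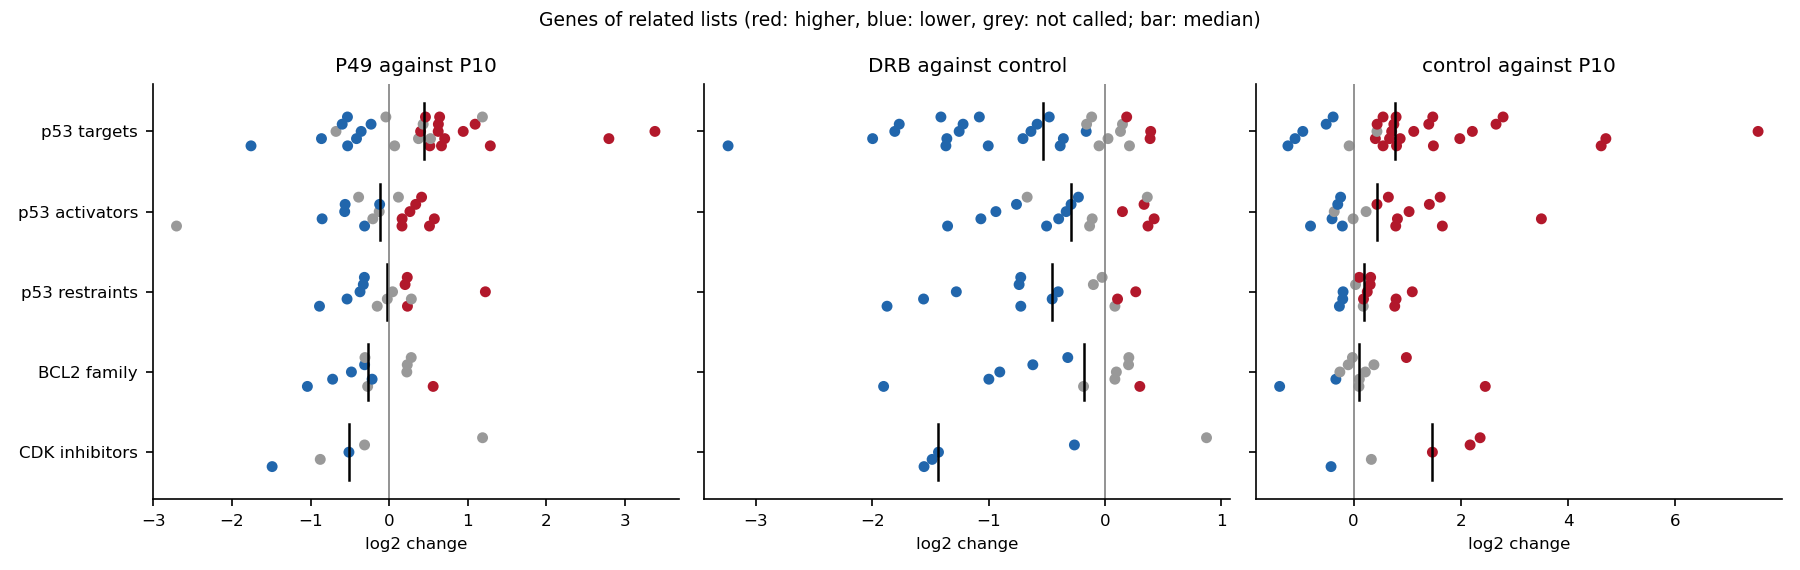
Log2 change (x axis) of each tested gene in 5 lists (rows) for P49 against P10 cortex, DRB against control cultures and control cultures against P10 cortex (red: called higher, blue: called lower, grey: not called, bar: median of the list). Of the 28 p53 targets, 18 lie in blue under DRB, and 21 lie in red for control cultures against P10 cortex.

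Among 17 activators of p53, 9 were lower and 4 higher under DRB (median log2 change -0.29), where 63.3% of all genes were called. Ep300, an acetyltransferase that acts with p53, had 62.0 ± 5.82 CPM under DRB and 129.9 ± 6.75 CPM in control cultures (log2 change -1.07, adjusted p = 9.43e-08), while Ppp1r13b, which encodes the p53 cofactor ASPP1, had 80.2 ± 0.618 CPM under DRB and 59.8 ± 1.35 CPM in control cultures (log2 change 0.42, adjusted p = 9.94e-06). With age 7 activators were higher and 5 lower in P49 cortex, where 57.3% of all genes were called, and in control cultures 9 were higher and 5 lower than in P10 cortex, where 74.4% were called. Chek2, a DNA damage kinase, had 11.9 ± 0.218 CPM in control cultures and 3.89 ± 0.201 CPM in P10 cortex (log2 change 1.62, adjusted p = 3.33e-07).

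Among 13 tested genes that restrain p53 other than the Mdm genes, 8 were lower and 2 higher under DRB (median log2 change -0.45), where 63.3% of all genes were called. Sirt1, a deacetylase of p53, had 3.76 ± 0.000368 CPM under DRB and 13.8 ± 1.03 CPM in control cultures (log2 change -1.87, adjusted p = 7.90e-08). Ppm1d, a phosphatase that acts on p53 and is itself a p53 target, had 6.58 ± 0.0315 CPM under DRB and 15.95 ± 0.825 CPM in control cultures (log2 change -1.28, adjusted p = 3.12e-07). With age 4 were higher and 5 lower, where 57.3% of all genes were called. Usp2, which deubiquitinates Mdm2, had 140.8 ± 2.52 CPM in P49 cortex and 60.3 ± 2.72 CPM in P10 cortex (log2 change 1.22, adjusted p = 7.56e-09). In control cultures 8 were higher and 3 lower than in P10 cortex, where 74.4% were called.

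Among 11 tested BCL2 family genes other than the members, 5 were lower and 1 higher under DRB, where 63.3% of all genes were called. The survival gene Mcl1 had 13.6 ± 1.04 CPM under DRB and 25.4 ± 1.14 CPM in control cultures (log2 change -0.90, adjusted p = 4.55e-06). With age 5 were lower and 1 higher, where 57.3% of all genes were called. Bak1, the death effector closest to Bax in function, had 11.1 ± 0.475 CPM in P49 cortex and 22.9 ± 0.0807 CPM in P10 cortex (log2 change -1.04, adjusted p = 6.49e-07). Of 5 CDK inhibitors other than Cdkn1a, 4 were lower and 0 higher under DRB, against the same 63.3% of all genes called. Cdkn1b, which encodes p27, had 35.4 ± 0.880 CPM under DRB and 42.4 ± 0.355 CPM in control cultures (log2 change -0.26, adjusted p = 0.0118).

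Of 2 tested p53 family genes, 2 were lower under DRB, 2 were higher in control cultures than in either tissue, and 1 was lower in P49 than in P10 cortex. Of all genes 63.3% were called under DRB, 74.4% and 76.6% in control cultures against P10 and P49 cortex, and 57.3% with age. Of 3 genes listed as regulators of splicing of the Mdm4 exon, none was higher in control cultures than in P10 cortex and 2 were lower, where 74.4% of all genes were called. Against P49 cortex 2 were higher in control cultures and none was lower, where 76.6% were called. Prmt5, an arginine methyltransferase that also stands among the 13 restraints and whose loss is known to cause skipping of the Mdm4 exon, had 170.0 ± 2.10 CPM in control cultures and 195.6 ± 5.22 CPM in P10 cortex (log2 change -0.20, adjusted p = 0.00237). Against P49 cortex, at 105.8 ± 2.42 CPM, it was higher in control cultures (log2 change 0.68, adjusted p = 9.19e-08), as was the splicing factor Srsf3, at 54.9 ± 2.35 CPM in control cultures and 35.9 ± 1.09 CPM in P49 cortex (log2 change 0.61, adjusted p = 1.49e-06). Prmt5 had 105.8 ± 2.42 CPM in P49 cortex, against 195.6 ± 5.22 CPM in P10 cortex (log2 change -0.89, adjusted p = 4.71e-08). Zmat3, an RNA-binding protein that is also among the 28 p53 targets, had 19.9 ± 0.0874 CPM in control cultures and 25.9 ± 1.10 CPM in P10 cortex (log2 change -0.38, adjusted p = 0.000491).

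For each member the genes with the most alike pattern were taken as those with the smallest root-mean-square difference of centred log2 CPM over the 8 libraries of the first experiment, among 9261 genes. The nearest was Ssr1 for Mdm4 (0.0284), Necap2 for Trp53 (0.0398), Ndc1 for Bax (0.0445), 4930485B16Rik for Ccng1 (0.0472), Kcnj10 for Mdm2 (0.0961), Rsph9 for Cdkn1a (0.106) and Nr4a3 for Bbc3 (0.206). No member was the nearest gene of another. Bbc3 could not be one, because its mean log2 CPM of 1.96 lay below the 3 required of these 9261 genes.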

How the data were processed

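Poly-A RNA of mouse neocortex and neocortical cultures was sequenced with a stranded kit (TruSeq Stranded mRNA, per the labels' protocols). Reads were aligned with STAR 2.4.0f1 to mm10, per the submitters' processing notes, and how junctions were counted is not stated there. The deposited tables hold raw counts of spliced reads per intron and library, per the file headers. They list 638144 and 449433 rows, each a junction between neighbouring exons of the authors' gene model, and the header has 3 more names than the rows have cells. A read over several junctions counts for each. Columns of control, P49 and second-experiment DRB libraries were assigned by elimination, and 72 columns were not used. Reads with no gene symbol made up 0.1998% of the first table and were left out.

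Each distinct coordinate was used once, and reads over junctions of GENCODE (mouse release 21) were summed per gene. In R 4.3.3, edgeR 4.0.16 (TMM, filterByExpr, quasi-likelihood test, Benjamini-Hochberg adjustment, threshold 0.05) was fitted over all groups of a table. Junction usage was tested with diffSpliceDGE for junctions with at least 10 reads in at least 2 libraries, and exon inclusion on mean reads rounded to whole numbers, with at least 20 over all libraries. DESeq2 1.42.0 and other scalings, filters and samples were alternatives. The planned test of reads that skip the 68-nt Mdm4 exon could not be run, and the inclusion index was added after the files had been seen. Simulated data had a spread (dispersion) of 0.02 and 2-fold changes in 200 genes, far fewer than were called in the first experiment. The gene-level test recovered 80% for P49 against P10, over 15013 genes, with 5 false calls. It recovered 78% for DRB against control, over 15045 genes, with 9. It recovered 74.5% for control against P10 with 9 false calls, 78.5% for control against P49 with 12 and 75.5% for bicuculline with 11. For control against P10 the exon inclusion test recovered 17.5% of changed exons of 30000. The junction test recovered 42% of changed junctions of 32243. Changed exons and junctions were drawn from those averaging at least 50 reads.

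The members and lists were chosen with earlier results of these data known. Named were all 7 members, up to 4 genes per list and comparison with the smallest p among those called with a mean log2 CPM from 1 upward, and 3 alike genes per member among those averaging a log2 CPM of 3 or more (prior count 2). The text shows a selection of the named genes.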

Additional observations from a re-analysis of the deposited data

Results flagged for a closer look

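Mdm4 junctions outside the annotation, which the gene sums leave out, were flagged for their reads under DRB. The rule asked for at least 10 reads in each DRB library and more than 1.5 times the highest control library. A level above control cultures is thus part of the choice. The junction chr1:132989040-132991699 had 33 and 33 reads under DRB, 66 in all, against 0 and 4 reads in control cultures, 4 in all. It had 4 and 3 reads in P49 cortex and 0 and 3 reads in P10 cortex. In the second experiment it had 8 and 14 reads with bicuculline and DRB, against 6 and 9 reads with DRB alone. The junction chr1:132985841-132988931 had 13 and 11 reads under DRB, 24 in all, against 2 and 0 reads in control cultures, 2 in all. It had 0 and 1 reads in P49 cortex and 0 and 0 reads in P10 cortex. In the second experiment it did not reach 20 reads over all libraries. Between them the junctions bound 108 nt, chr1:132988932-132989039. Counts this low carry a large counting error, and no library was left out in turn for them.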

How the results depend on the processing

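Of 315 recomputed log2 changes of members, 284 kept direction and call, 12 lost the call and 19 changed sign. With libraries scaled to their totals, Mdm4 and Bax under DRB changed sign and were called, at -0.18 and -0.18. The other sign changes were of values not called in either fit. On library totals Mdm4 had -0.0284 for P49 against P10. For bicuculline, Bax had 0.00126 without a filter, 8.92e-05 with every junction of the symbol, 0.00312 on library totals and 2.41e-05 with the replicate block. Leaving out 1 library, values under DRB ranged between -0.0290 and 0.0443 for Mdm4, -0.0339 and 0.0641 for Bax and -0.391 and 0.0710 for Bbc3. For bicuculline they ranged between -0.187 and 0.0392 for Mdm2, -0.0227 and 0.0520 for Mdm4, -0.0451 and 0.0926 for Cdkn1a, -0.0403 and 0.0638 for Ccng1, -0.0226 and 0.174 for Bbc3 and -0.0465 and 0.0465 for Bax. Usage of the Mdm4 junction chr1:133004722-133009136 ranged between -0.15 and 0.22 for P49 against P10. That scaling moved the median log2 change of all genes to -0.22 for DRB, 0.12 for control against P10 and 0.20 for control against P49, and the share of calls that were higher to 30.3%, 57.0% and 60.3%, against 47.4%, 50.0% and 51.6% with TMM. The cause was not tested.

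No paired analysis was possible for the first experiment, because its column names hold no replicate number that matches libraries across groups. In the second, with the letter in the column names as a replicate block, 96 genes were called, against 30 without it. No member's call changed. Same-letter libraries correlated at 0.0959 in their deviations over 12079 genes. Without a filter 67 genes were called, and leaving out 1 library gave 36 to 82.

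Leaving out 1 library, called junctions numbered 1594 to 2210 for P49 against P10, 1141 to 1448 for DRB, 4482 to 6668 for control against P10, 5181 to 5664 for control against P49 and 0 to 2 for bicuculline. With unannotated junctions included, 3809 were called for DRB. Called exons by inclusion numbered 340 to 538, 254 to 349, 634 to 1060, 890 to 1011 and 0 to 0 in the same order, and 261 for P49 against P10 fitted on those groups alone. The log2 change in the index of the Mdm4 exon, in either form, ranged between -0.93 and -0.44 for control against P10. It was -0.63 with the upstream junction alone and -0.67 on the 2 groups alone. For control against P49 it ranged between -0.75 and -0.25. It ranged between -0.0204 and 0.473 for DRB and between -0.30 and -0.08 for P49 against P10. Exons with skipping junctions called numbered 776 to 977, 913 to 1208, 1275 to 1640, 1933 to 2420 and 0 to 6 without 1 library. They numbered 337, 878, 879 and 1312 with the upstream junction alone, 0 for bicuculline with the downstream junction alone, and 1209 for DRB and 1849 for control against P49 with at least 100 reads. The share of Mdm4 reads that skip the exon was planned and not run. Only 2 libraries a group and 4 to 26 reads for the 39-nt form in the first experiment limit what could be detected.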
